A study of Mus musculus with 33 samples.

Results

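The difference between a macrophage and a type 2 conventional dendritic cell (cDC2) was compared between kidney and spleen, gene by gene, in 12 RNA-seq libraries of 33 in the series. They were chosen by their labels: F4/80hi YFP- macrophages and cDC2 of the kidney, and red pulp macrophages (RPM) and cDC2 of the spleen, each as the 3 libraries whose names carry the prefix GS. All 4 groups came from C57BL/6 mice aged 10 weeks in which both copies of Clec9a carry Cre and both copies of Rosa26 carry a YFP reporter, so that Clec9a is altered in macrophages and dendritic cells alike. YFP marks cells that express Clec9a or descend from precursors that did. Both kidney groups were sorted from CD45+ cells with MHCII and without Ly6C, the macrophages as YFP- cells with CD64, high F4/80 and low CD11b, and the cDC2 as YFP+ cells with CD11c and CD11b but not CD64. In the spleen, RPM were autofluorescent F4/80+ YFP- cells, and cDC2 were MHCII+ CD11c+ CD11b+ YFP+ cells without autofluorescence. Every macrophage library was thus YFP- and every cDC2 library YFP+, so lineage and YFP cannot be told apart here, and MHCII and CD64 were part of the macrophage gate in the kidney only. The interaction is the log2 fold of macrophage over cDC2 in the kidney minus the same fold in the spleen. A positive value means a stronger macrophage bias, or a weaker cDC2 bias, in the kidney.

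Macrophages of a tissue and conventional dendritic cells are both mononuclear phagocytes. Macrophages depend on CSF1 receptor signalling, stay in place and clear dying cells and debris, while cDC2 arise from FLT3-dependent precursors, migrate and present antigen on MHC class II to CD4 T cells. Red pulp macrophages take up aged red cells and recycle their iron, under the control of the transcription factor SpiC, which haem induces. Kidney F4/80hi macrophages lie between tubules and capillaries. Both kinds of cell are shaped by their organ, so a gene that separates them in one organ need not do so in another.

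The libraries held 11343653 to 23000575 reads in genes. Across genes, log2 levels correlated at 0.918 to 0.983 within a group and at 0.704 to 0.878 between groups, the lowest value within a group being that of kidney cDC2. Each group has 1 library from each of 3 sort codes, and the 4 libraries of code SR17_017 held more Y-linked transcripts than Xist, the others not. Levels are given as CPM, gene reads scaled to a common library total by TMM, in the order of replicates 1 to 3 (3 to 5 for kidney cDC2). Nothing in the labels says whether replicates are separate animals, so p-values measure the spread between these libraries. The transcripts of the gates separated the groups in part. Emr1, which encodes F4/80, stood at 2514, 2080.0 and 1895 CPM in kidney macrophages and 1987, 2379 and 2032 in RPM. It was at 58.5, 37.1 and 65.7 in kidney cDC2 and 265, 281 and 347 in spleen cDC2, below every macrophage library. Itgax, which encodes CD11c, did not separate the kidney pair, at 284, 252 and 309 CPM in macrophages and 242, 272 and 345 in cDC2, whereas spleen cDC2 at 844, 844 and 795 lay above RPM at 133, 119 and 130.3. The class II gene H2-Ab1 had means of 30405 ± 3515 CPM in kidney macrophages and 42642 ± 16237 in kidney cDC2 (SD, n = 3), against 3935 ± 1671 in RPM and 16892 ± 589 in spleen cDC2. Clec9a was near 0 in all groups, with means of 0.0971 to 0.205 CPM.

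The split between macrophage and cDC2 depended on the organ for more genes than had the same bias in both organs without such a difference. A gene was called at an adjusted p under 0.05 and an absolute log2 difference of at least 1 (edgeR quasi-likelihood, Benjamini-Hochberg over 12872 genes). The interaction was called for 3688 genes, 28.7% of those tested, higher in the kidney for 1643 (12.8%) and lower for 2045 (15.9%). In the kidney 2867 genes (22.3%) differed between macrophage and cDC2, 1420 higher in macrophages (11%) and 1447 higher in cDC2 (11.2%). The spleen pair differed for 4621 genes (35.9%), 2405 higher in RPM (18.7%) and 2216 higher in cDC2 (17.2%). Macrophage-biased in both organs were 791 genes, which is 55.7% of the kidney list and 32.9% of the spleen list and 6.15% of all genes tested. For cDC2 the shared genes numbered 702, or 48.5% of the kidney list, 31.7% of the spleen list and 5.45% of all genes. The side to which the interaction leans depends on the scaling: with library size alone in place of TMM, 2424 genes were higher and 1351 lower and the median over all genes moved from -0.01 to 0.381, and with limma on log2(TPM + 1) 3766 were higher and 1084 lower around a median of 0.575. The spleen pair had 1902 genes higher in RPM and 2949 higher in cDC2 with library size alone, and the kidney pair 1808 and 848 with log2(TPM + 1).

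**Figure D1:**
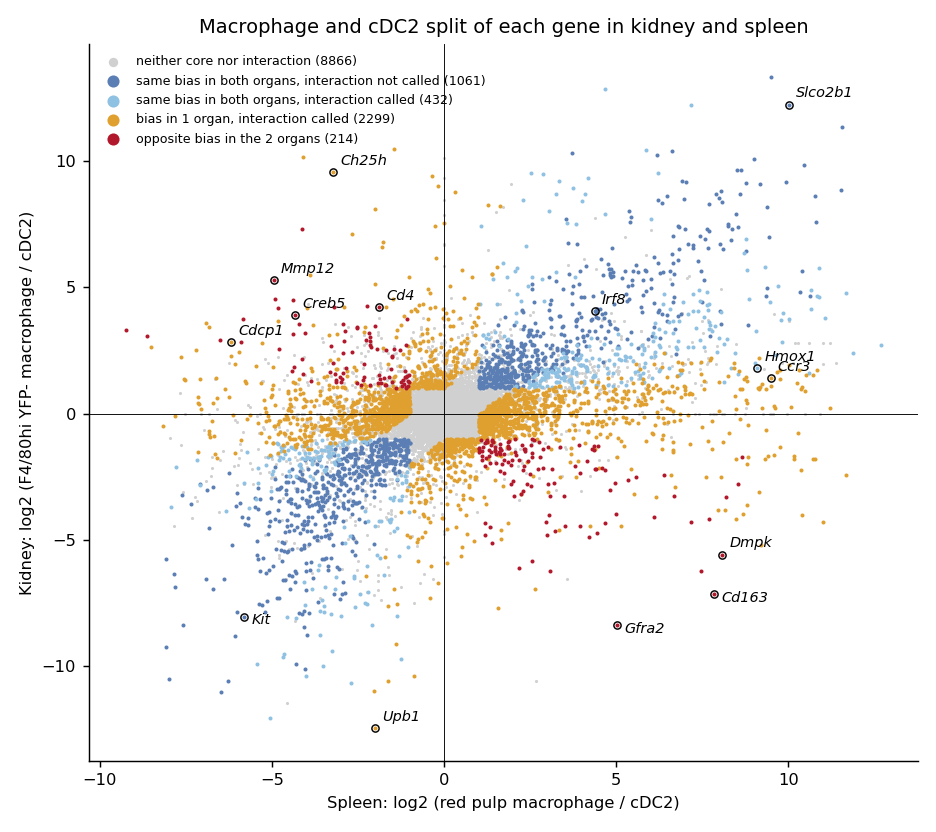
Each point is a gene, with the log2 fold of macrophage over cDC2 in the spleen on the horizontal axis and in the kidney on the vertical axis, coloured by the class of its calls. The 1061 genes with the same bias and no called interaction run from lower left to upper right, and the 214 genes with opposite bias fill the other corners.

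Several patterns of calls make up the organ-dependent genes. The bias was called in opposite directions for 214 genes, 87 of them with the macrophage higher in the kidney and the cDC2 higher in the spleen (0.676% of genes) and 127 the reverse (0.987%). Which of these was larger turned with the scaling, to 126 and 98 with library size alone, 143 and 55 with log2(TPM + 1) and 236 and 74 with log2(TPM + 0.1). Another 432 genes were biased the same way in both organs but by unequal amounts, 263 toward the macrophage (2.04%) and 169 toward cDC2 (1.31%). A bias called in 1 organ only, with a called interaction, was found for 898 genes toward RPM (6.98%) and 271 toward kidney macrophages (2.11%). Toward cDC2 it was found for 804 genes in the spleen (6.25%) and 326 in the kidney (2.53%). With library size alone these 4 counts were 599, 346, 1335 and 191, and with log2(TPM + 1) 566, 655, 1741 and 139. Without the libraries of code SR17_017 the interaction was called for 3146 genes and the count of kidney cDC2 genes was 198. That count was 206 without kidney cDC2 replicate 3, 538 without replicate 4 and 505 without replicate 5. For the last 743 genes (5.77%) neither organ's own difference was called, a count of 483 without kidney macrophage replicate 3, 427 without code SR17_017, 259 with no fold threshold and 1126 with log2(TPM + 1). Outside the interaction, 860 genes had a macrophage bias (6.68%) and 915 a cDC2 bias (7.11%) called in 1 organ only, and 6348 had no call (49.3%). Between organs, 3176 genes differed in macrophages (24.7%; 1725 higher in the kidney, 13.4%, and 1451 lower, 11.3%) and 2921 in cDC2 (22.7%; 1797 higher, 14%, and 1124 lower, 8.73%). The direction in cDC2 turned with library size alone, to 1101 higher and 1961 lower. Of all 3688 genes, the macrophages alone differed between organs for 1200 (32.5%), the cDC2 alone for 1029 (27.9%), both for 520 (14.1%) and neither for 939 (25.5%). Where the interaction was lower, RPM held the highest mean of the 4 groups for 1220 of 2045 genes (59.7%) and kidney cDC2 for 702 (34.3%). Where it was higher, spleen cDC2 did for 917 of 1643 (55.8%) and kidney macrophages for 587 (35.7%). High levels in these groups give the interaction its sign, so these shares are in large part set by the contrast.

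The shared macrophage genes include textbook identity genes. With both organs called and the interaction not called, 528 genes (4.10%) formed a macrophage core. C1qa, a chain of complement C1q, had means of 5537 ± 112 CPM in kidney macrophages and 5260.0 ± 808 in RPM against 16.9 ± 18.5 and 19.4 ± 1.65 in the cDC2 of kidney and spleen (SD, n = 3), with an interaction of 0.30 ± 0.77 (SE, edgeR adjusted p = 0.803). C1qa, and Maf, Spic, Vcam1 and Flt3 below, were picked after their values were seen. Most other genes named here follow a rule given in the processing section. Single list members and markers of other cell types are also named beside their counts or sums.

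An uncalled interaction does not show equal folds, so a narrower core was also taken, in which the 95% interval of the interaction lies within 2-fold either way. It holds 72 macrophage genes and 44 cDC2 genes, together 0.901% of those tested. The total of 116 was 175 without code SR17_017, 177 with log2(TPM + 1) and 377 with no fold threshold. Irf8, a transcription factor needed for cDC1 and used in macrophages, had the largest folds among its macrophage genes. It was at 705, 656 and 643 CPM in kidney macrophages and 1058, 1061 and 945 in RPM. In cDC2 it was at 57.5, 30.4 and 32.2 in the kidney and 48.1, 53.4 and 45.97 in the spleen, so that macrophage and cDC2 libraries did not overlap in either organ. Over all genes that held for 46.9% in the kidney and 63.8% in the spleen. The log2 fold was 4.06 ± 0.22 in the kidney and 4.38 ± 0.22 in the spleen (SE), and their difference -0.31 ± 0.31. Cd86, a costimulatory ligand for T cells usually linked with dendritic cells, was also a macrophage gene in both organs, at 458, 501 and 503 CPM in kidney macrophages against 62.6, 74.9 and 83.5 in cDC2, and 815, 1055 and 869 in RPM against 162, 142 and 166. Its folds were 2.72 ± 0.16 and 2.54 ± 0.16. Adap2, which encodes an ArfGAP with PH domains, Tmbim1, Fggy, a carbohydrate kinase, and Tpcn2, a cation channel of endolysosomes, made up the rest of the named narrow core, with interactions between -0.47 and 0.31.

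The largest shared folds belonged to genes that the cDC2 hardly transcribed. Slco2b1, an organic anion transporter, was at 324, 410.4 and 546 CPM in kidney macrophages and 274, 374 and 384 in RPM, and at no more than 0.673 in any cDC2 library. Lilra5, an activating immunoglobulin-like receptor, was at 1017, 1136 and 1048 CPM in kidney macrophages but only 83.7, 106 and 89.5 in RPM, while 5 of 6 cDC2 libraries were under 1 CPM. Its interaction of 1.09 ± 1.55 was not called, yet the macrophage levels themselves did not overlap between the organs. Mag, a sialic acid-binding lectin of the Siglec family known from myelin, had no read in the 6 cDC2 libraries and 20.6, 33.1 and 10.5 CPM in kidney macrophages and 32.5, 28.7 and 13.9 in RPM. That is at least 357-fold higher in the kidney and at least 389-fold in the spleen, taking 3 reads over the cDC2 group as the floor. Mmp13, a collagenase, and Siglec1, the sialoadhesin of macrophages, varied widely between libraries. Mmp13 was at 261, 1104 and 1393 CPM in kidney macrophages and 16.7, 47.6 and 144 in RPM, lowest in replicate 1 of both, and Siglec1 at 34.1, 39.2 and 136 and 29.9, 73.8 and 179.6. Epor, the erythropoietin receptor, was at 5.71, 26.6 and 35.6 CPM in kidney macrophages and 127, 129 and 110.5 in RPM. Col14a1, a fibril-associated collagen, Cmklr1, the chemerin receptor, Btbd11 and Cpne8 completed the 10.

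**Figure D2:**
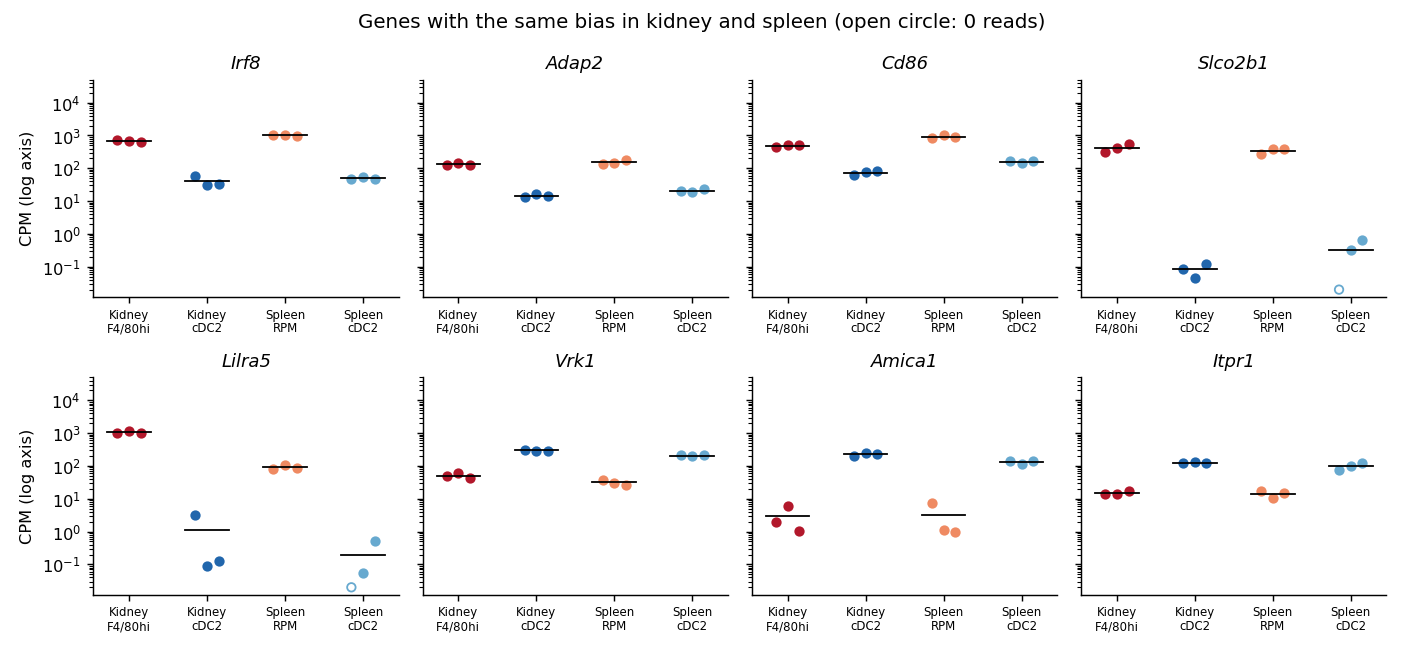
CPM in each library on a log axis, 1 panel per gene, with dots for libraries, a bar for the group mean and an open circle for 0 reads. The macrophage groups lie above the cDC2 groups for Irf8, Adap2, Cd86, Slco2b1 and Lilra5 and below them for Vrk1, Amica1 and Itpr1, in kidney and spleen.

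On the cDC2 side the shared set of 533 genes (4.14%) holds receptors of dendritic precursors and genes of antigen-presenting cells. Kit, the receptor for stem cell factor, was at 28.2, 38.8 and 59.2 CPM in kidney cDC2 and 559.7, 656 and 663 in spleen cDC2. In macrophages it was at 0.380, 0 and 0.135 in the kidney and 23.5, 4.78 and 4.82 in RPM, where replicate 1 stood above the other 2. Flt3, the receptor on which cDC2 development depends, had means of 356 ± 11.9 and 456 ± 15.9 CPM in kidney and spleen cDC2 against 5.59 ± 4.34 and 14.5 ± 18.8 in the macrophages (SD, n = 3). Amica1, an adhesion receptor also called JAML, was at 207, 242 and 233 CPM in kidney cDC2 and 138, 115 and 146 in spleen cDC2, with no macrophage library above 7.43. Rgs18, a regulator of G protein signalling, had folds of -5.71 ± 0.70 and -5.27 ± 0.69. Dhrs9, a retinol dehydrogenase, and Cd209c, a C-type lectin of the DC-SIGN family, had no read in the 6 macrophage libraries. Dhrs9 was at least 160-fold higher in kidney cDC2 and at least 31.3-fold in spleen cDC2, and Cd209c at least 235-fold and 11-fold. Within the narrow core, Vrk1, a nuclear kinase, was at 314, 288 and 292 CPM in kidney cDC2 and 214, 200.1 and 209.9 in spleen cDC2 against 47.9, 61.5 and 44.1 and 38.3, 30.2 and 25.6 in the macrophages, with an interaction of 0.19 ± 0.25. Itpr1, a calcium release channel of the endoplasmic reticulum, Wdfy4, which cDC1 of the mouse need for cross-presentation, Pmaip1, a BH3-only inducer of cell death also called NOXA, St3gal4, a sialyltransferase, and Mob3b had interactions between -0.27 and 0.30.

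Mmp12, the macrophage elastase, led the 87 genes that turned from macrophage bias in the kidney to cDC2 bias in the spleen, ranked by the smaller of both folds. In the kidney it was a macrophage transcript, at 896, 777 and 471 CPM against 9.62, 26.5 and 19.1 in cDC2. In the spleen it was a cDC2 transcript, at 221, 260.0 and 169.6 CPM against 13.9, 2.61 and 4.30 in RPM. No library of one lineage overlapped the other in either organ, and kidney macrophages and spleen cDC2 were the high groups. The folds were 5.27 ± 0.51 and -4.95 ± 0.52, and the interaction 10.22 ± 0.72 (SE, edgeR adjusted p = 6.52e-06). Creb5, a bZIP transcription factor of the CREB and ATF family, was at 114, 126 and 127 CPM in kidney macrophages and 8.25, 7.68 and 8.82 in kidney cDC2. In the spleen its levels were low in both, at 0.614, 0.810 and 0.374 in cDC2 and a single read in RPM, a ratio of 26.6 with a 95% exact interval of 4.78 to 1050. Thbs1, the matrix protein thrombospondin-1, was at 12.2, 15.9 and 32.5 CPM in kidney macrophages and 15.3, 64.2 and 45.8 in spleen cDC2, against at most 3.61 in the other groups. Cdhr3, a cadherin-related protein, and Zfp599, a zinc finger protein, followed the same pattern at lower levels. Dpp10 and Dnajc22 were assigned to it too, but their kidney difference rests on means of 0.477 and 0.183 CPM in macrophages and on 1 and 0 reads in cDC2.

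Surface receptors of other cell types and of innate sensing were also among the 87. Cd4, the T cell coreceptor that spleen cDC2 of the mouse also carry, was at 252, 283 and 318 CPM in spleen cDC2 and 66.4, 73.02 and 92.4 in RPM. Kidney cDC2 held only 1.53, 4.90 and 4.53, below kidney macrophages at 29.96, 94.7 and 85.00, and the interaction was 6.10 ± 0.58 (SE, edgeR adjusted p = 2.81e-05). P2ry6, a receptor for UDP, was at 583, 527 and 481 CPM in kidney macrophages and 258, 198 and 186 in kidney cDC2, and at 68.9, 53.5 and 52.8 in spleen cDC2 against 8.83, 3.31 and 7.58 in RPM. Here both kidney groups lay above both spleen groups. Tlr5, the flagellin receptor, was highest in spleen cDC2 at 22.7, 28.4 and 22.4 CPM, and Clec5a, a lectin that signals through DAP12, in kidney macrophages at 140.0, 195 and 170.5. Itgal, the alpha chain of LFA-1, and Il21r, the receptor for interleukin 21, had smaller interactions of 4.33 ± 0.43 and 2.15 ± 0.19.

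The reverse pattern, high in kidney cDC2 and in RPM, was led on the same rank by Cd163, the scavenger receptor for haemoglobin bound to haptoglobin and a widely used macrophage marker. RPM held 291, 483 and 559 CPM and spleen cDC2 0.955, 0.810 and 4.19. In the kidney the cDC2 were at 31.3, 98.5 and 205 CPM and the macrophages at 0.476, 1.57 and 0.203, so that every kidney cDC2 library was above every kidney macrophage library. The folds were -7.16 ± 0.88 in the kidney and 7.84 ± 0.74 in the spleen, with an interaction of -15.00 ± 1.15 (SE, edgeR adjusted p = 8.35e-06). Dmpk, the myotonic dystrophy protein kinase, was at 30.6, 21.9 and 39.8 CPM in kidney cDC2 and 457, 439.8 and 310.2 in RPM, and at no more than 2.05 in the other 6 libraries. Gfra2, a receptor for neurturin, was at 443, 497 and 486 CPM in RPM and 12.96, 14.5 and 16.1 in spleen cDC2, at 4.94, 27.8 and 24.4 in kidney cDC2, and had 2 reads in kidney macrophages. Capg, an actin-capping protein, was highest in kidney cDC2 at 424, 359.7 and 321 CPM, against 18.5, 14.6 and 9.13 in kidney macrophages, 42.3, 22.6 and 45.4 in RPM and 1.84, 1.78 and 1.42 in spleen cDC2. Mcoln2, a cation channel of endolysosomes, and Palld, the actin-binding protein palladin, had interactions of -11.47 ± 1.31 and -9.09 ± 1.04.

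Cfp, which encodes properdin, the positive regulator of the alternative complement pathway, was high in 3 groups and low in 1. It was at 4444, 4006 and 3355 CPM in RPM, 470.4, 476 and 475 in spleen cDC2 and 915, 488 and 491 in kidney cDC2, but at 57.3, 28.5 and 32.3 in kidney macrophages. Timd4, a receptor for phosphatidylserine on dying cells, was at 292, 238 and 182 CPM in RPM and at most 8.86 CPM in every other library, with kidney cDC2 at 2.47, 8.86 and 6.19 above kidney macrophages at 0, 0.131 and 0.811. Slc48a1, the transporter that brings haem out of the phagolysosome, was at 1432, 1351 and 1125 CPM in RPM against 67.2, 62.1 and 62.05 in spleen cDC2, and at 258, 169 and 174 in kidney cDC2 against 79.2, 91.04 and 78.2 in kidney macrophages. Id2, a helix-loop-helix inhibitor important in dendritic cell development, was highest in RPM at 1799.5, 2114 and 2084 CPM and lowest in kidney macrophages at 164, 227 and 191, with cDC2 of both organs between them. Cd300e and Pira2, both activating myeloid receptors, and Ifi205, an interferon-inducible gene, showed the same turn, with interactions of -6.56 ± 0.72, -5.33 ± 0.76 and -4.71 ± 0.99.

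**Figure D3:**
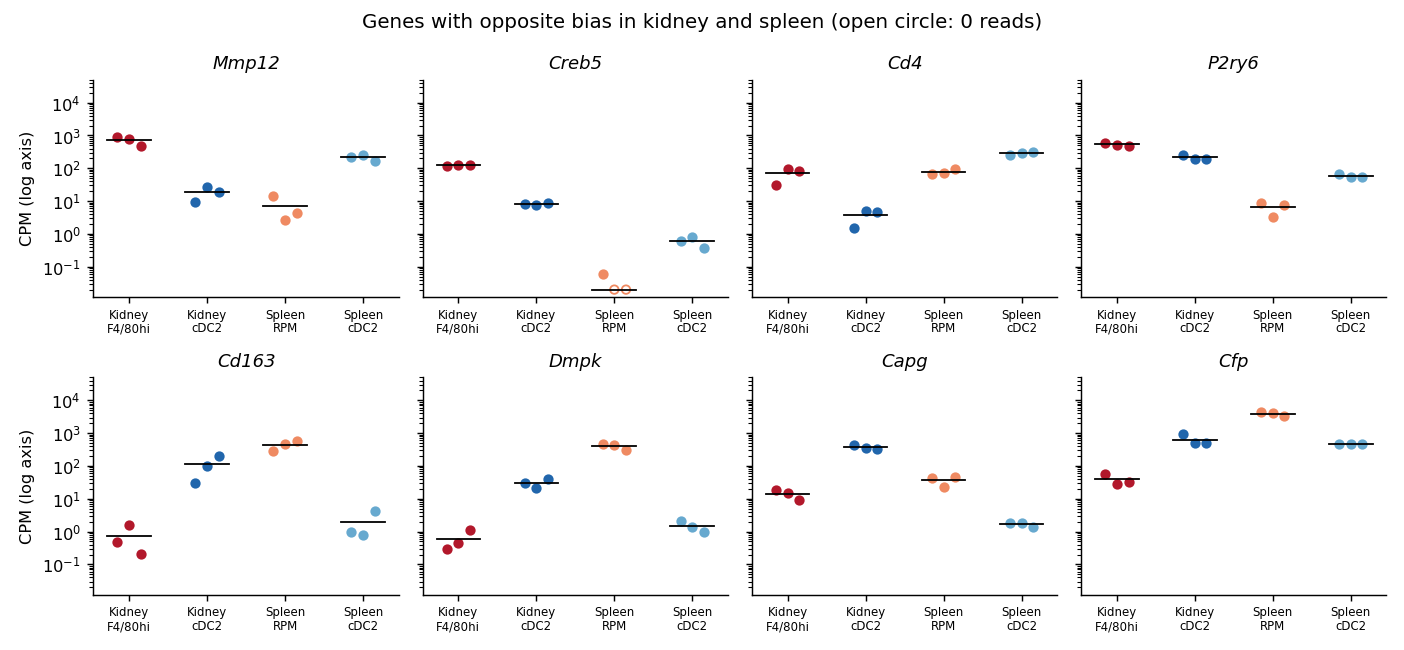
CPM in each library on a log axis, 1 panel per gene, with dots for libraries, a bar for the group mean and an open circle for 0 reads. In the top row kidney macrophages lie above kidney cDC2 and RPM below spleen cDC2, and in the bottom row the order is the reverse.

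Bases upstream of the transcription start are shown for the leading gene of 4 classes, as RefSeq gives them (GRCm38.p6), 250 bases each on the strand of the gene, with motif matches in capitals. Mmp12 stands for the first opposite class (chr9:7344147-7344396, plus strand, the first of 2 starts listed) and Cd163 for the second (chr6:124304401-124304650, plus strand). Ch25h stands for kidney macrophages (chr19:34475149-34475398, minus strand) and Irf8 for the macrophage genes of the narrow core (chr8:120736108-120736357, plus strand, the first of 2 starts).
Mmp12: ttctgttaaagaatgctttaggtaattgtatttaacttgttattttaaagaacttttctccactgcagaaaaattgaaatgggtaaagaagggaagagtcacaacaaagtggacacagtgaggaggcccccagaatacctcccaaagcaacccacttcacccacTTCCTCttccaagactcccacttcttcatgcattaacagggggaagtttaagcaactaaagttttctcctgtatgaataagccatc
Cd163: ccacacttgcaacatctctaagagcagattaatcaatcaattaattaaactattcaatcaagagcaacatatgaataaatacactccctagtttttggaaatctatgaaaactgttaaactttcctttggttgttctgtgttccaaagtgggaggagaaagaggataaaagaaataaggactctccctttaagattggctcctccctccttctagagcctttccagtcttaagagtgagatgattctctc
Ch25h: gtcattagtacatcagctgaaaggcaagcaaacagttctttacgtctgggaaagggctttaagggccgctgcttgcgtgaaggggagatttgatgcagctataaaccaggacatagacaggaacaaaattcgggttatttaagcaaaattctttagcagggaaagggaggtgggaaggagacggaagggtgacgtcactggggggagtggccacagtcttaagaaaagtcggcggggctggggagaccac
Irf8: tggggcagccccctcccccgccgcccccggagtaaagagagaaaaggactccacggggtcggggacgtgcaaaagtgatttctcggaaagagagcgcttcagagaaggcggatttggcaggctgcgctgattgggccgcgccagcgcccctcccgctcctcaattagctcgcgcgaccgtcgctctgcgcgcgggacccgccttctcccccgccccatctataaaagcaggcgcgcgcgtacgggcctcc
The letters searched, on both strands, were GAGGAA, the core bound by PU.1 and SpiC, TGANTCA, the AP-1 site, and TGCTGAC, part of the site of MAF factors. Only GAGGAA was found in these 4 stretches, once, in Mmp12 on the minus strand, where it reads TTCCTC, and no motifs overlapped. Of the 9718 tested genes with an entry, 22.8% held GAGGAA, 4.26% TGANTCA and 3.0% TGCTGAC in the same window. Among the shared macrophage genes the shares were 26.0%, 5.61% and 5.10% (392 with an entry of 528), among the shared cDC2 genes 25.9%, 6.22% and 1.62% (370 of 533), and among the genes of opposite bias 23.8%, 3.12% and 6.88% (160 of 214). For genes biased toward the macrophage in the kidney only they were 27.8%, 4.39% and 2.44% (205 of 271). In the spleen only they were 21.4%, 4.59% and 5.03% (676 of 898). A match or its absence in this window is a description of letters and says nothing of binding.

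Genes with a bias called only in the kidney, toward the macrophage, were led by Ch25h, the enzyme that makes 25-hydroxycholesterol. Kidney macrophages held 169, 254 and 209 CPM, and none of the other 9 libraries exceeded 0.590. Against RPM, which had 1 read in all, the ratio was 9340 with a 95% exact interval of 1680 to 369000. Spleen cDC2 stood above RPM by a ratio of 12.8 (2.29 to 504), though that bias was not called. Gdf3, a ligand of the TGF-beta family, was at 8.75, 17.3 and 8.65 CPM in kidney macrophages, at least 193-fold above kidney cDC2, which had no read. Cd276, the B7-H3 immune ligand, was at 42.2, 44.1 and 52.2 CPM in kidney macrophages, and Itga8, an integrin alpha chain, at 72.1, 63.6 and 62.1, against no more than 2.11 CPM elsewhere for both. Plxna4, a semaphorin receptor, and Stard13, a GTPase-activating protein, were at no more than 3.83 CPM outside kidney macrophages. Without spleen cDC2 replicate 2 the call of Plxna4 was lost (edgeR adjusted p = 0.228), and that of Stard13 without spleen cDC2 replicate 1 (0.949) or kidney macrophage replicate 2 or 3 (0.0501 and 0.0564). Cx3cr1, the fractalkine receptor, was at 964, 923 and 912 CPM in kidney macrophages, 88.2, 24.98 and 40.5 in kidney cDC2, 6.43, 10.1 and 26.9 in RPM and 21.8, 17.7 and 18.1 in spleen cDC2. Its kidney fold of 4.19 ± 0.48 had no counterpart in the spleen at -0.42 ± 0.49. Itga6, an integrin chain for laminin, and Cd63, a tetraspanin of late endosomes, had interactions of 6.37 ± 1.12 and 3.83 ± 0.78, and Cd63 in RPM stood at 50.5, 7.97 and 9.56 CPM, with replicate 1 apart.

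Genes with a bias called only in the spleen, toward RPM, numbered 898 with TMM scaling, against 804 toward cDC2. That order turned with the replicate block (901 and 918) and with library size alone (599 and 1335). An uncalled kidney bias does not show that there is none. Dgki, a diacylglycerol kinase, was at 38.1, 60.7 and 84.3 CPM in RPM and had no read in kidney macrophages, at least 826-fold lower. Ccr3, the eotaxin receptor, was at 973, 1315 and 1099 CPM in RPM, and every other library was under 2. Cd5l, a secreted scavenger protein of macrophages, was at 2878, 2116 and 1579.7 CPM in RPM, Itgad, the CD11d integrin chain, at 1055, 1608 and 1509, and Stab2, a receptor that clears hyaluronan, at 307, 547 and 402. Kidney macrophages held means of 0.199, 0.175 and 0.108 CPM of these. Nr1h3, which encodes the oxysterol receptor LXR alpha, was at 949, 769 and 649 CPM in RPM, 9.96, 8.05 and 5.23 in spleen cDC2 and no more than 4.25 in the kidney. Il1a, the alarm cytokine interleukin 1 alpha, was at 243, 367 and 359.9 CPM and Ccl24, a chemokine for eosinophils, at 93.05, 151 and 119, both in RPM. Ubd, a ubiquitin-like modifier, was at 236, 142 and 211 CPM in RPM and had 1 read in kidney macrophages. Col19a1, Sema6a, Ifitm10, Btnl4 and Cpne4 had 0 to 3 reads in kidney macrophages and means of 10.9 to 27.2 CPM in RPM. Leaving out 1 kidney cDC2 library ended 5 of these calls in edgeR: Cd5l without replicate 3 (adjusted p = 0.0539), Stab2 and Sema6a without replicate 4 (0.0812 and 1.0), and Btnl4 and Cpne4 without replicate 5 (1.0 for both), the last 3 having then no read in that group.

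Kidney cDC2 had genes of their own. Ccl17, a chemokine for CCR4 on T cells, was at 356, 78.9 and 92.3 CPM in kidney cDC2, and no other library exceeded 0.432. Clec10a, a galactose-binding lectin of cDC2, was at 995, 909 and 784 CPM there but only 4.50, 4.27 and 6.20 in spleen cDC2, just above RPM at 3.28, 1.53 and 4.05. Kidney macrophages held 10.7, 19.7 and 16.02, and the interaction was -5.08 ± 0.44 (SE, edgeR adjusted p = 1.10e-05). Upb1, an enzyme of pyrimidine breakdown, was at 35.4, 52.4 and 51.5 CPM in kidney cDC2, at least 628-fold above kidney macrophages without a read. Tnfrsf13c, the BAFF receptor best known from B cells, was at 57.1, 52.9 and 44.7 CPM in kidney cDC2 and at most 8.19 elsewhere. Cd209d, Galnt9 and Dyrk3 had means of 12.6, 16.5 and 18.6 CPM in kidney cDC2. The interaction calls of Ccl17, Cd209d and Galnt9 were lost without RPM replicate 1, at adjusted p = 0.128, 0.0925 and 1.0 in edgeR.

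In spleen cDC2 the leading gene was Cdcp1, a transmembrane protein, at 20.9, 18.9 and 23.7 CPM against no more than 0.643 elsewhere. Rundc3b was at 25.8, 27.5 and 27.2 CPM and Clec4a4, the DCIR2 lectin that marks cDC2 of the mouse spleen, at 154, 160.0 and 179. Kidney cDC2 held 3.23, 0.636 and 1.35 CPM of Clec4a4, overlapping kidney macrophages at 3.90, 3.40 and 2.30. Adam19, a metalloprotease of dendritic cells, was at 93.7, 114 and 126 CPM in spleen cDC2 and 4.33, 0.956 and 0.603 in RPM, while kidney cDC2 at 10.6, 23.4 and 20.7 overlapped kidney macrophages at 11.1, 43.2 and 73.6. Runx3, a transcription factor of cDC2 and lymphocytes, gave 229, 231 and 241 CPM in spleen cDC2 against 22.6, 2.10 and 4.13 in RPM, and overlapping levels of 119, 133 and 115 in kidney cDC2 and 104, 90.1 and 121 in kidney macrophages. In this class a gene may also be one that both kidney groups share. Spp1, the matrix protein osteopontin, was at 122, 173 and 186 and 223, 124 and 158 CPM in kidney macrophages and cDC2, at 7.23, 9.45 and 8.15 in spleen cDC2 and at most 0.409 in RPM. Tmem52b and Atp4a are placed here as well, and the part of kidney tubule transcripts in both was not tested. Tmem52b was at 54.5, 108 and 92.5 CPM in kidney macrophages and 1.62, 35.4 and 68.4 in kidney cDC2, lowest in replicate 1 of the first and replicate 3 of the second, which are also the libraries with least tubule RNA of their groups. Its call was lost without RPM replicate 1 or 2 or spleen cDC2 replicate 2, at adjusted p of 0.0569 to 0.0639 in edgeR.

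Across gene lists, the interaction was called for more members than the 28.7% of all genes in 23 of 25 lists. Its direction differed between lists. Over all genes it was higher for 12.8% and lower for 15.9%. The lists and their members were chosen with earlier results of these data known. The counts therefore describe the lists and are no test of function. In the list of macrophage identity, all 46 genes were higher in RPM than in spleen cDC2 (2405 of 12872 over all genes), 40 were higher in kidney macrophages than in kidney cDC2 and 2, Cd163 and Lgals3, were lower. The median log2 fold was 3.88 in the kidney and 5.50 in the spleen, against 0.04 and 0.00 over all genes. The interaction was higher for 7 and lower for 22 of them, with a median of -0.97 against -0.01 over all genes. Library size alone gave 8 and 20, and log2(TPM + 1) 10 and 20. Tlr7, a sensor of single-stranded RNA, was among the 7, at 99.4, 107 and 154 CPM in kidney macrophages against 0.170, 1.04 and 0.674 in kidney cDC2, while spleen cDC2 at 76.4, 59.4 and 80.5 came close to RPM at 95.7, 177 and 183. Gas6, the bridge between dying cells and the receptors MERTK and AXL, was among the 22, at 43.9, 55.9 and 101 CPM in RPM and 3 reads in spleen cDC2, a call lost without spleen cDC2 replicate 1 or 2 (edgeR adjusted p = 0.068 and 0.0745). Maf, a transcription factor of macrophages, did not pass for the interaction at -0.84 ± 0.71 (edgeR adjusted p = 0.386), with folds of 7.42 ± 0.50 and 8.26 ± 0.51.

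**Figure D4:**
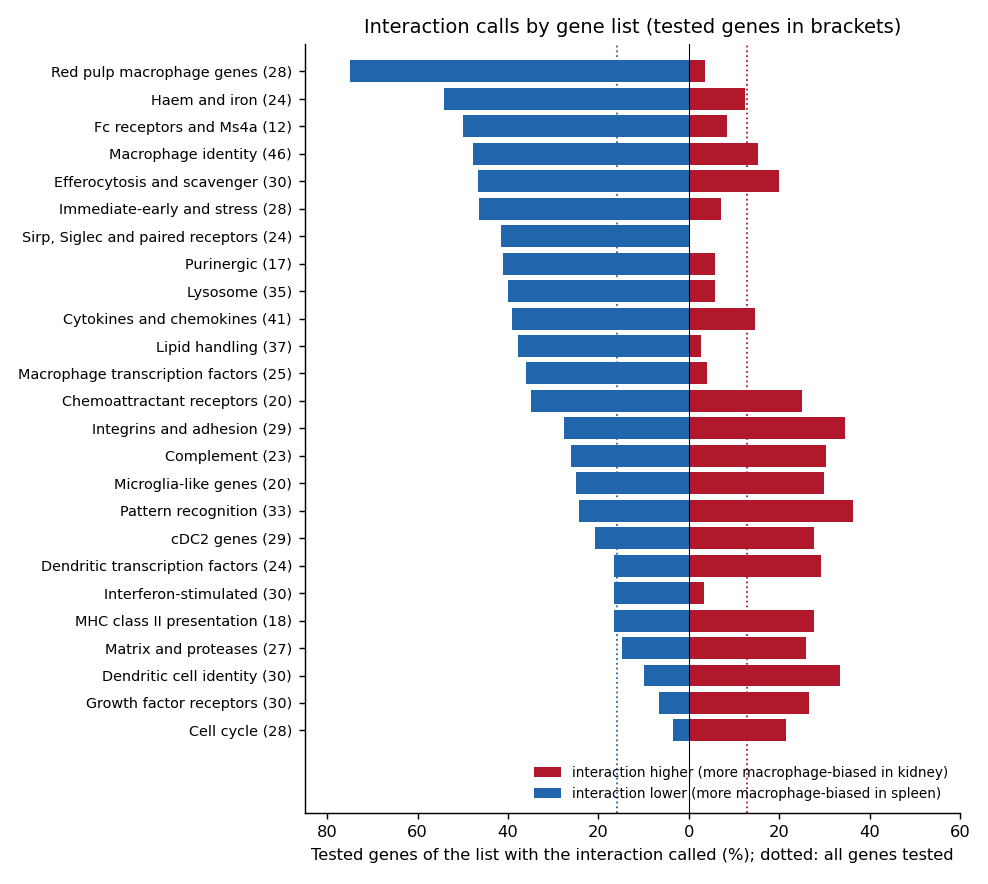
Bars give the percentage of tested genes of each list with the interaction called, to the right where it was higher and to the left where it was lower, and dotted lines mark 12.8% and 15.9%, the shares over all genes. The list of red pulp macrophage genes leads on the left with 21 of 28, and pattern recognition on the right with 12 of 33.

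Genes of haem and iron handling leaned toward the spleen: of 24 tested, 13 had a lower and 3 a higher interaction (median -1.32), and 17 were higher in RPM than in cDC2 against 9 of 24 in the kidney pair. Hmox1, the haem-degrading enzyme, was at 8568, 11561 and 9863 CPM in RPM and 116, 164 and 151 in kidney macrophages, against 10.3, 22.3 and 22.3 in spleen and 21.2, 39.7 and 63.7 in kidney cDC2. Both folds were called, 1.79 ± 0.37 in the kidney and 9.09 ± 0.37 in the spleen, with an interaction of -7.31 ± 0.52. Of the 28 red pulp macrophage genes, all were higher in RPM than in spleen cDC2, 13 were higher in kidney macrophages than in kidney cDC2 and 4 lower, and the interaction was lower for 21 and higher for 1. Spic itself was called in both organs without a called interaction. Its means were 14.5 ± 5.09 CPM in kidney macrophages against 0.379 ± 0.256 in cDC2, and 1809.8 ± 262 in RPM against 18.3 ± 6.65 (SD, n = 3; interaction -1.50 ± 0.62 SE, edgeR adjusted p = 0.0899). Vcam1, an adhesion molecule of red pulp macrophages, likewise had an uncalled interaction of -1.47 ± 0.96 with means of 161 and 10233 CPM in the macrophages. For Spic and Vcam1 the levels of the macrophages lay further apart between the organs than their ratios to cDC2. Paqr9 and Fabp4, a fatty acid carrier, were RPM genes with little or no signal in the kidney.

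Lysosomal genes were macrophage genes in both organs. Of 35 tested, 23 were higher in kidney macrophages and 27 in RPM than in cDC2 and none lower, and 12 belonged to the shared core. The interaction was lower for 14 and higher for 2, Cd63 and Gusb, with a median of -0.71. With library size alone the counts were 8 lower and 3 higher. With log2(TPM + 1) they were 6 and 4 around a median of 0.00, against 0.575 over all genes. Ctsd, the protease cathepsin D, was at 8878, 8151 and 6409 CPM in RPM and 519, 484 and 465 in kidney macrophages, against 119, 121 and 115 in spleen cDC2 and 223, 155 and 169 in kidney cDC2. Ctsb, cathepsin B, and Ctsf, cathepsin F, had interactions of -2.96 ± 0.22 and -2.84 ± 0.55. Of 30 genes of efferocytosis and scavenging, 14 were lower and 6 higher, and of 37 genes of lipid handling 14 lower and 1, the fatty acid transporter Cd36, higher. Plin2, a lipid droplet coat protein, was at 539, 651 and 601 CPM in RPM against 18.00, 20.5 and 9.79 in spleen cDC2, while the kidney groups, at 162, 207 and 169.8 in macrophages and 265, 192 and 141 in cDC2, overlapped. Hpgd, which inactivates prostaglandins, had an interaction of -4.17 ± 0.38.

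Among 25 macrophage transcription factors the interaction was lower for 9 and higher for 1, Runx3, to which DESeq2 gave no adjusted p. With log2(TPM + 1) 8 were lower and 4 higher. Rxra, the retinoid partner of nuclear receptors, was at 284, 394 and 384 CPM in RPM and 47.4, 30.7 and 40.98 in kidney macrophages against 9.14, 6.59 and 5.83 and 6.38, 15.4 and 15.01 in spleen and kidney cDC2. Among 24 dendritic transcription factors 7 had a higher and 4 a lower interaction, and with log2(TPM + 1) 13 and 2. Zbtb46, the factor that marks conventional dendritic cells, was called toward cDC2 in both organs, at 86.5, 127 and 129.99 CPM in kidney and 223, 189 and 172 in spleen cDC2 against 1.33, 1.11 and 0.947 in kidney macrophages and 20.5, 6.75 and 7.49 in RPM. Its interaction of -2.61 ± 0.56 was not called on the log2(TPM + 1) scale. Nfil3, a bZIP factor, had an interaction of -2.59 ± 0.46.

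Receptors were split by kind. Of 33 pattern recognition genes 12 were more macrophage-biased in the kidney and 8 less so, with a median of 1.01, and 19 of them were higher in kidney macrophages than in kidney cDC2. The 14 called between the cDC2 of the organs in favour of the spleen outnumbered the 7 in favour of the kidney. Of 12 Fc receptor and Ms4a genes 6 were lower and 1 higher. Fcgr3, an activating IgG receptor, was at 1308, 1279.7 and 1135 CPM in kidney macrophages and 1131, 968 and 962 in RPM, so the interaction of -3.14 ± 0.25 came with cDC2 levels of 76.8, 94.4 and 121 in the kidney and 9.82, 9.07 and 8.22 in the spleen. Fcgr1, which encodes CD64, had 27.8, 10.3 and 28.9 CPM in kidney cDC2, which were sorted as CD64-, and 0.136, 1.67 and 1.57 in spleen cDC2. Ms4a7 was the 1 higher gene, at 892, 817 and 692 CPM in kidney macrophages and 242, 183 and 222 in RPM. C5ar1, the receptor of complement fragment C5a, was at 707, 628 and 553 CPM in kidney macrophages, 10.1, 16.6 and 26.3 in RPM and at most 4 in cDC2. Of 23 complement genes 7 were higher and 6 lower, and C6, a terminal component, was at 866, 914 and 611 CPM in RPM and under 2 in all other libraries. Tgfbr1, a TGF-beta receptor, was at 1043, 1250.2 and 1322 CPM in kidney macrophages against 45.97, 127 and 145 in RPM, with cDC2 means of 58.8 and 51.2. Tmem119, a marker of microglia, was at 306, 369 and 399 CPM in kidney macrophages and 4.80, 11.02 and 6.20 in RPM. Of the remaining lists, 10 integrin and adhesion genes of 29 were higher and 8 lower, 6 of 41 cytokine and chemokine genes higher and 16 lower, 5 of 20 chemoattractant receptors higher and 7 lower, 8 of 30 growth factor receptors higher and 2 lower, 1 of 17 purinergic genes higher and 7 lower, 7 of 27 matrix genes higher and 4 lower, and none of 24 Sirp, Siglec and paired receptor genes higher and 10 lower. With log2(TPM + 1) the last of these gave 8 higher and 5 lower, the chemoattractant receptors 7 and 7, and the complement genes 8 and 9. With library size alone the chemoattractant receptors gave 6 higher and 5 lower. Lists of microglia-like genes gave 6 higher and 5 lower of 20, and the list of cDC2 genes 8 and 6 of 29. In the main fit 33.3% of the growth factor receptors were called, near the 28.7% over all genes.

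More dendritic identity genes were called in the spleen pair than in the kidney pair, as held over all genes (35.9% against 22.3%). None of 30 was higher in a macrophage group, 21 were higher in kidney cDC2 and 28 in spleen cDC2, and the interaction was higher for 10 and lower for 3 with a median of 1. The cDC2 fold was the larger one in the kidney for 14 of the 30, called or not. Without RPM replicate 1 the interaction was higher for 15 and lower for 2. That library stood highest of the 3 RPM libraries for 29 of 31 dendritic genes, with a summed level of 3870 CPM against 3290 and 3080, and for Slamf7, a receptor of the SLAM family, it was at 52.8, 2.93 and 5.85 CPM in the order of replicates. The call of Slamf7 was lost without spleen cDC2 replicate 2 or 3 or kidney macrophage replicate 3 (edgeR adjusted p = 0.0504, 0.0535 and 0.05). Whether other cells in that library play a part was not tested. Haao, an enzyme of tryptophan breakdown, and Pstpip1, an adaptor of the cytoskeleton, were called in the spleen alone, with folds of -4.15 ± 0.49 and -4.04 ± 0.53, and the kidney fold of Pstpip1 was -0.91 ± 0.49. Among 18 genes of MHC class II presentation 5 were higher, among them the class II chains H2-Ab1, H2-Aa and H2-Eb1, and 3 lower, of which H2-DMb2 lost its call in 9 of the 12 fits that leave out 1 library. Without RPM replicate 1 the counts were 8 and 2, and without code SR17_017 9 and 2. Ciita, the master regulator of class II genes, was at 187, 201 and 214 CPM in kidney macrophages and 78.02, 37.3 and 46.9 in RPM against 428, 441 and 466 and 552, 499 and 541 in the cDC2. Kidney macrophages were sorted as MHCII+ and RPM were not, so the gate and the organ cannot be told apart for these genes. Cd83, a surface protein of activated antigen-presenting cells, was low in kidney macrophages at 545, 557 and 541 CPM and between 2592 and 3992 CPM on average in the other groups.

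Immediate-early and stress genes were cDC2-biased, and more so in the kidney. Of 28, 21 were higher in kidney cDC2 than in kidney macrophages (11.2% of all genes) and 14 in spleen cDC2 than in RPM (17.2%). None went the other way. The interaction was lower for 13 and higher for 2, against 15.9% and 12.8% of all genes. Atf3, a stress-induced transcription factor, was at 4256, 5499.9 and 4089 CPM in kidney cDC2 against 327, 384 and 170.3 in kidney macrophages, and at 739, 971 and 926 in spleen cDC2 against 491, 614 and 602 in RPM. The summed level of the list was 57000 to 70100 CPM in kidney cDC2, 29900 to 30800 in spleen cDC2, 17600 to 23500 in kidney macrophages and 15300 to 20100 in RPM. These genes also respond to cell isolation, and the part of isolation was not tested. With log2(TPM + 1) the interaction was lower for 9 and higher for 5, around a median of 0.07 against 0.575 over all genes. Cell cycle genes were cDC2-biased in both organs, 16 of 28 in the kidney and 26 of 28 in the spleen, against 11.2% and 17.2% of all genes. None were macrophage-biased and 15 were in the shared core. The interaction was higher for 6 and lower for 1, Tk1, whose call was lost in 8 of the 12 fits that leave out 1 library. Together these are 25% of the cell cycle list, under the 28.7% over all genes. With library size alone 9 were higher and none lower, and with log2(TPM + 1) 16 and none. Mcm6, a subunit of the replicative helicase, was at 187, 177 and 189 CPM in kidney cDC2 and 243, 212 and 181 in spleen cDC2 against 100.2, 113 and 162 in kidney macrophages and 39.3, 40.97 and 54.9 in RPM. Of 30 interferon-stimulated genes 24 were not called in the interaction, 5 were lower and 1, Oas2, higher but lost in 9 of the 12 such fits, a share of 20% against 28.7% over all genes. In this list log2(TPM + 1) gave 8 higher and 4 lower.

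Transcripts of other cell types were low in most lists but not all, and none of the results above was corrected for them. In a bulk library fewer cells of a kind and less RNA per cell cannot be told apart. Of 20 kidney tubule genes, 18 remain without Napsa and Gpx3. Napsa had means of 103 CPM in RPM and 1130 in spleen cDC2, and Gpx3 of 59.6 in RPM but 0.439 in spleen cDC2. The summed level of the 18 genes was 572, 1470 and 1060 CPM in kidney macrophages and 78.8, 355 and 593 CPM in kidney cDC2, against 4.08 to 8.59 CPM in the spleen libraries. Umod, which encodes uromodulin of the thick ascending limb, had means of 259 CPM in kidney macrophages and 36.4 in kidney cDC2 and was below 0.1 in the spleen groups. Slc12a3, the cotransporter of the distal tubule, and Atp1b1 were called in the interaction with these levels beside them, Atp1b1 not without RPM replicate 2 or spleen cDC2 replicate 2 (edgeR adjusted p = 0.065 and 0.0693). Red cell markers summed to 51.3 to 198 CPM in RPM and at most 39.6 elsewhere, with Alas2 at 25.03, 24.02 and 47.1 CPM in RPM, and the globin genes were listed at 0 in all groups. T and NK cell markers summed to 48.1 to 103 CPM in kidney cDC2, where Cd3e had a mean of 11.3, and to at most 57.5 in the other groups. B and plasma cell markers summed to 64.7 to 425 CPM, most of it Cd22 and Cd79b. Cd79a, the B cell receptor chain, was at 38.2, 10.3 and 12.6 CPM in RPM, highest in replicate 1, and Pax5 had means of 0 to 0.128. Neutrophil markers other than Csf3r had means of at most 2.44 CPM in every group. Monocyte markers summed to 589 to 6140 CPM, led by Ccr2 in kidney macrophages, Treml4 in RPM and Nr4a1 in both cDC2 groups, while Ly6c2 had a mean of 4.24 CPM in kidney cDC2 and at most 0.283 elsewhere. Endothelial markers were highest in RPM through Stab2 and Pecam1, with Cdh5 at no more than 0.220 and Cldn5 at no more than 0.0455. Fibroblast markers summed to at most 39.3 CPM, and Siglech of plasmacytoid cells had means of 41.5 CPM in kidney cDC2 and 8.02 in kidney macrophages. The cDC1 list summed to 2090 to 2360 CPM in kidney macrophages and 2100 to 2180 in RPM, led by Cadm1 and Irf8, and to 648 to 873 in the cDC2 groups, led by Wdfy4, while Xcr1 had means of 2.97 to 6.20 CPM. The part of these transcripts in the calls was not tested.

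**Figure D5:**
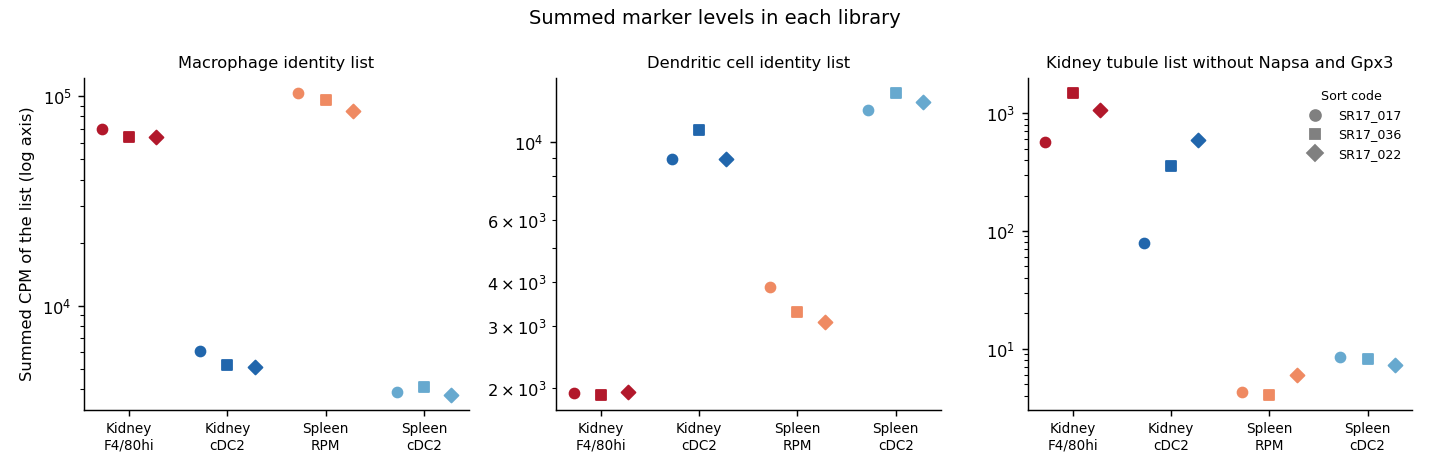
Summed CPM of a marker list in each library on a log axis, coloured by group, with the marker shape giving the sort code. Macrophage identity genes sum to 63800 to 103000 CPM in the 6 macrophage libraries and 3760 to 6100 in the cDC2 libraries, and tubule genes are above 70 CPM in kidney libraries only.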

How the data were processed

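RNA was taken with PicoPure, amplified as cDNA with SMARTseq v4 and made into libraries with MicroPlex, per the labels' protocols. The authors deposited STAR read counts per gene, and RSEM expected counts and TPM values, on mm10, per the submitters' processing notes; versions are not given in the sources used here. The unstranded counts of 12 libraries were used, leaving out 4 rows that name no gene, so that reads of a gene and an antisense partner cannot be told apart. These rows held 22.6% to 37.2% of a library's counted reads.

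Of 24054 gene symbols, 12872 passed filterByExpr (minimum count 10, minimum total 15). Counts were fitted with edgeR 4.0.16 (quasi-likelihood, TMM) in R 4.3.3, with 4 group means and 8 residual degrees of freedom, and p-values were Benjamini-Hochberg adjusted. Standard errors are Wald errors, not given where a group has no read. Folds against a group without reads are bounds from 3 reads over the group, and those against 1 to 3 reads have 95% exact intervals, for counting error only. The fit was tested on simulated data with the same dispersion for all genes, independent libraries and no changes placed in genes of low level. That test does not cover genes of few reads or the shared deviation of sort codes. Named genes had a mean of at least 10 CPM in 1 group and were ranked by interaction (10 per direction). Genes of opposite bias (6 per direction) and of the core (10, or 6 for the narrow core) were ranked by the smaller fold. The 10 of the core also needed libraries without overlap in either organ. Genes called in 1 organ (6 per class) and in lists (up to 4) were ranked by interaction. Genes of the sort panel were added. Some genes are not reported here. The members and lists were chosen with earlier results of these data known. Alternatives were RLE and library size scaling, no filter, DESeq2 1.42.0, all 21 GS or 33 libraries, rounded expected counts, limma 3.58.1 on log2(TPM + 1) and log2(TPM + 0.1), F4/80hi YFP+ macrophages, a replicate block, no fold threshold, and each library left out. Leaving out sort code SR17_017 was added after seeing the data.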

Additional observations from a re-analysis of the deposited data

Results flagged for a closer look

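For 144 of 176 named genes the test of the interaction itself passed (edgeR), so that the fold of macrophage over cDC2 in the kidney differed from that in the spleen. Most named genes were picked among genes with a called interaction, so this count follows from the choice and is no result. Over all genes tested the share was 28.7%. The 25 chosen for the size of the difference, or of the smaller fold where the bias was opposite, are given as log2 differences, kidney minus spleen. The 10 with the largest positive values were Ch25h at 12.80, Gdf3 at 11.92, Mmp12 at 10.22, Cd276 at 10.12, Cdhr3 at 9.43, Zfp599 at 9.41, Cdcp1 at 9.02, Dpp10 at 9, Dnajc22 at 8.88 and Atp4a at 8.46. A positive value need not mean a kidney macrophage gene: Cdcp1, Dpp10 and Dnajc22 had their highest level in spleen cDC2. The 10 with the largest negative values were Dgki at -15.30, Cd163 at -15, Col19a1 at -14.40, Sema6a at -14.11, Dmpk at -13.67, Gfra2 at -13.42, Ifitm10 at -12.59, Btnl4 at -12.57, Cpne4 at -12.49 and Ubd at -12.44. Another 5 had opposite bias in the organs: Creb5 at 8.23, Thbs1 at 7.74, Mcoln2 at -11.47, Capg at -9.15 and Palld at -9.09. For Dgki, Col19a1, Sema6a, Ifitm10, Btnl4, Cpne4, Gdf3, Dnajc22 and Atp4a at least 1 of the 4 groups had no read, so the fitted value depends on the prior count and is neither a bound nor a measured fold. The part of kidney tubule transcripts in the Atp4a value was not tested.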

How the results depend on the processing

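Leaving out 1 library at a time gave 2928 to 3951 interaction calls (main 3688), 2409 to 3138 in the kidney pair (2867), 4273 to 4931 in the spleen pair (4621), 2720 to 3552 between the macrophages (3176), 2230 to 3201 between the cDC2 (2921), 966 to 1113 shared genes (1061) and 165 to 243 of opposite bias (214). The number of calls between the cDC2 moved to 4717 with log2(TPM + 0.1) and to 4386 with no fold threshold, which also gave 426 genes of opposite bias. These cDC2 calls split into 1797 higher in the kidney and 1124 lower in the main fit, 1101 and 1961 with library size alone and 549 and 3314 with log2(TPM + 1); the cause was not tested. The Igj interaction, -10.09, ranged from -11.23 to 0.13 with 1 library left out, turning without kidney cDC2 replicate 5 (edgeR adjusted p = 0.807). Of 144 named genes with a called interaction, 37 lost the call in at least 1 of 24 settings. Libraries of the same sort code deviated together: 16 of 18 pairs had a correlation over 0.1 (0.0234 to 0.316), against 1 of 36 pairs of different code (-0.253 to 0.118). All 3 pairs passed 0.1 in 4 of the 6 pairs of groups, but not between kidney macrophages and kidney cDC2 (0.098 to 0.27) or RPM (0.0234 to 0.308). The fit without the block was kept as the main one, so its p-values leave this shared deviation out of account. With the replicate block the interaction was called for 4102 genes, 2012 higher and 2090 lower, against 1643 and 2045 in the main fit. The kidney pair was then called for 3022 genes and the spleen pair for 4724, and 1077 genes were shared and 236 opposite. Without sort code SR17_017, 974 genes were shared and 216 opposite. With 3 libraries a group, genes of few reads limit the folds: the interval of the interaction lay within 2-fold for 1778 genes (13.8%).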
